A study of Mus musculus with 32 samples.

Results

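The RNA of lung inflammatory monocytes (iMo) was compared between DBA2J and C57BL6J mice. The 4 libraries of this comparison, 2 of each strain, were taken by their labelled cell type and strain from 16 RNA-seq libraries in a series of 32 samples. Alveolar macrophages (AM), interstitial macrophages (IM) and patrolling monocytes (pMo) of the same strains make up the other RNA-seq groups, and the remaining samples are ATAC-seq, which maps open chromatin. All mice were untreated inbred animals, and age, sex and the number of animals per library are not given in the sources used here. Cells were sorted by flow cytometry from dissociated lung after staining for a panel of surface antigens that included Ly6c, CD64, SiglecF and Ly6g, and the dissociation included a step at 37 degrees. One label calls the cells inflammatory macrophages and others call them monocytes, and monocytes is the name kept below. The labels do not say whether the replicates of a group came from separate animals. A p-value therefore reflects only how far these libraries scatter, which may be technical.

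Inflammatory, or classical, monocytes leave the bone marrow under the chemokine receptor Ccr2, carry the surface protein Ly6c, and enter tissues where they can turn into macrophages or dendritic cells. Patrolling monocytes carry little Ly6c, depend on the transcription factor Nr4a1 and survey the vessel wall. C57BL/6 and DBA/2 mice are long-separated inbred strains with different haplotypes of the major histocompatibility complex (MHC), the gene cluster that encodes the proteins presenting antigen to T cells. They also differ by known variants in genes of the inflammasome, the Ifi200 DNA sensor family and the antiviral enzyme Apobec3.

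Levels are in TPM, a read share corrected for gene length that is scaled to 1000000 per library, here after removal of 2 ribosomal entries, Rn45s and Mir6236. The authors' TPM divided reads by the genomic span of each gene, introns included, so that levels may be compared between libraries but compare between genes only per base of span. Whole reads could be recovered from the values, and the iMo libraries held 9451967 and 6380647 reads without the ribosomal entries for C57BL6J and 12170075 and 6685055 for DBA2J. The ribosomal entries had taken 26.3% and 22.6% of the deposited TPM in C57BL6J and 32.3% and 44.7% in DBA2J. Replicates correlated across genes with r = 0.936 in C57BL6J and r = 0.952 in DBA2J.

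The label agreed in direction with its defining markers in both strains. Ly6c2, which encodes the Ly6c antigen, was at 1165 and 1269 TPM in C57BL6J iMo and at 925 and 727 in DBA2J iMo, against 13.8 to 28.6 in the 4 pMo libraries. The 18 classical monocyte markers summed to 12340 to 13920 TPM in the 4 iMo libraries and to 4857 to 5531 in the 4 pMo libraries, and the 16 patrolling monocyte markers to 7573 to 12190 and to 20160 to 23390. None of the 8 tested genes of the sort panel passed the test between the strains in iMo by limma or voom, and 0 had an unadjusted p under 0.05. The neutrophil marker Ly6g was at 0 reads in every monocyte library, and the alveolar macrophage marker Siglecf stayed at or below 1.34 TPM in the 4 iMo libraries.

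Of 13873 genes tested, 453 differed between the strains in iMo at a Benjamini-Hochberg adjusted p under 0.05 in limma, which is 3.27% of the genes. In DBA2J 249 were higher (1.79%) and 204 lower (1.47%), 370 differed at least 2-fold, and 79 at least 8-fold, on the log2(TPM + 1) scale that all differences below use. For all 453 genes the libraries of the strains did not overlap, which was so for 40.7% of all tested genes. Among the called genes 23 had under 20 reads in every iMo library. The test pools the spread of all 8 groups of cell type and strain. With the 4 iMo libraries alone 3 genes passed, among them H2-Ea-ps and Kcne3, each with an adjusted p of 0.0373. Without DBA2J replicate 1 the count was 251 and without DBA2J replicate 2 it was 217, where the lone library of a strain is assumed to vary like the other groups. On the TPM as deposited 166 genes were higher and 285 lower, with the median of all genes at -0.125 instead of 0.02.

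Among the 12 largest named differences toward DBA2J were those of MHC genes, an Ifi200 gene, a chitinase-like gene and an adhesion receptor. H2-Ea-ps, which encodes the alpha chain of the MHC class II E molecule and carries a deletion in the C57BL/6 haplotype, was at 0 TPM in both C57BL6J libraries and at 1573 and 1181 TPM in DBA2J. Those values rest on 0 reads against 3913, so that it was at least 525-fold higher against a floor of 3 reads per library. Ifi202b, a DNA-binding Ifi200 protein known to be silent in C57BL/6, was also at 0 in both C57BL6J libraries and at 276 and 226 TPM in DBA2J, at least 797-fold higher.

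Chil1 encodes a secreted chitinase-like protein, also called YKL-40 or BRP-39, that binds chitin without cutting it. It was at 0.408 and 0 TPM in C57BL6J iMo and at 132 and 109 TPM in DBA2J iMo. The C57BL6J libraries thus held 2 reads of Chil1 together against 1061 in DBA2J, a ratio of 478 with a 95% counting interval of 132 to 3956. The log2 difference was 6.67 ± 0.39 (SE) with an adjusted p of 3.37e-06. The gene lies at chr1:134182404-134190031 on the plus strand (mm10).

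Adgrg5, an adhesion G protein-coupled receptor of leukocytes, was at 5.09 and 9.78 TPM in C57BL6J iMo and at 294 and 309 TPM in DBA2J iMo. Both strains therefore had reads of this gene, 135 against 6584, and the ratio of means was 40.6. Its log2 difference was 5.22 ± 0.26 (SE) with an adjusted p of 1.39e-06. It was the only 1 of 14 tested adhesion receptors to pass, where 3.27% of all genes passed.

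Other leading genes higher in DBA2J were the class I genes H2-Q10, H2-Q2, H2-Q1 and H2-M2, with log2 differences of 6.72, 6.58, 6.21 and 5.68, the zinc finger gene Zfp791 (6.64), the ribosomal protein gene Rpl38 (5.92), the hepcidin gene Hamp2 (5.11) and Pianp (5.08), which encodes a ligand of the paired receptor PILR alpha. The H2-Q genes are near-identical copies of each other, and H2-Q6 and H2-Q8 had the same reads in every library, so the copy that gave the reads is uncertain. The same holds for ribosomal protein genes, whose processed copies lie across the genome: Rpl38 was higher and Rpl29 (-5.68) and Rps2 (-3.15) lower in DBA2J, while the median of 40 cytosolic ribosomal protein genes was -0.10. All 12 leading genes toward DBA2J passed in each fit that left out 1 iMo library.

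**Figure D1:**
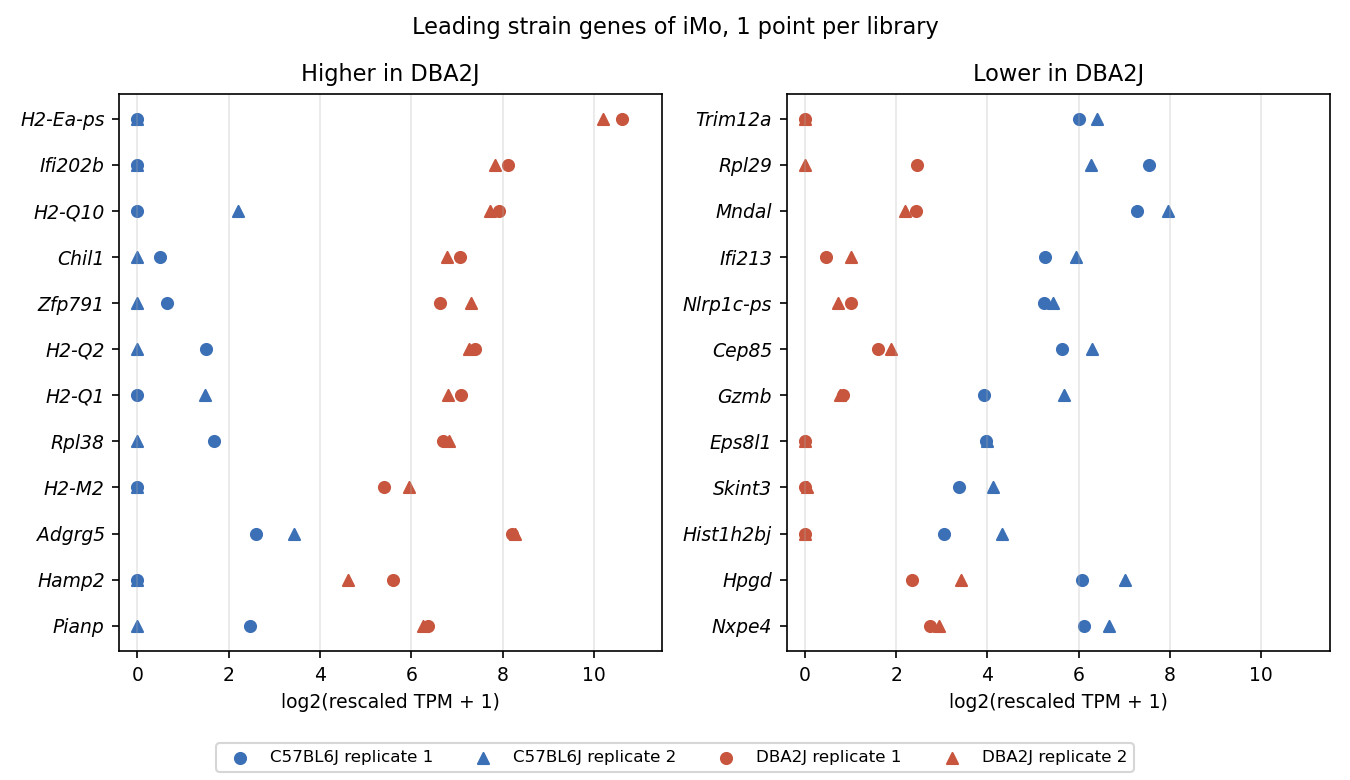
Each row is a gene and each point 1 iMo library, on a log2(TPM + 1) axis, for the 12 largest differences in each direction among genes the naming rule admits. The strains do not overlap in any of the 24 genes, and H2-Ea-ps, Ifi202b, H2-M2, Hamp2, Trim12a, Eps8l1 and Hist1h2bj are at 0 in both libraries of 1 strain.

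Among the 12 largest named differences toward C57BL6J were those of antiviral, DNA sensor, inflammasome and prostaglandin genes. Trim12a, a relative of the retroviral restriction factor Trim5, was at 63.7 and 83.9 TPM in C57BL6J and at 0 in both DBA2J libraries, at least 197-fold lower there. Mndal, an Ifi200 family gene, was at 154 and 246 TPM in C57BL6J and at 4.40 and 3.60 in DBA2J, and its neighbour Ifi213 was at 37.1 and 60.1 against 0.379 and 1.02. Both were low in each DBA2J library, with log2 differences of -5.30 and -4.85.

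Hpgd encodes 15-hydroxyprostaglandin dehydrogenase, the enzyme that inactivates prostaglandin E2. It was at 66.6 and 128 TPM in C57BL6J iMo and at 4.13 and 9.73 TPM in DBA2J iMo. Hpgd thus fell by 3.65 ± 0.47 (SE) on the log2 scale, with an adjusted p of 0.00123, and the ratio of means was 14.0. The 23 tested prostaglandin and leukotriene genes had a median of -0.05, with 11 above 0 and 12 below. Of these Hpgd passed downward (against 1.47% of all genes). Alox5 (0.75), the leukotriene-forming lipoxygenase, and Pla2g7 (1.04), the platelet-activating factor hydrolase, passed upward (against 1.79%). The calls of both upward genes were lost on the TPM as deposited, with an adjusted p of 0.207 for Alox5 and 0.12 for Pla2g7. The call of Alox5 was also lost without C57BL6J replicate 1 or DBA2J replicate 1, with an adjusted p up to 0.162, and that of Pla2g7 without C57BL6J replicate 1, DBA2J replicate 1 or DBA2J replicate 2, up to 0.135. Without the AM groups Pla2g7 had an adjusted p of 0.0632.

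The other leading genes lower in DBA2J were Rpl29, the inflammasome pseudogene Nlrp1c-ps (-4.49), the centrosomal gene Cep85 (-4.21), the granzyme gene Gzmb (-3.99), Eps8l1 (-3.98), Skint3 (-3.73), the histone gene Hist1h2bj (-3.68) and Nxpe4 (-3.56). Hist1h2bj rests on 5 reads in C57BL6J and 0 in DBA2J. The calls of Gzmb and Hist1h2bj were lost without C57BL6J replicate 2, DBA2J replicate 1 or DBA2J replicate 2, with an adjusted p of up to 0.187 for Gzmb and 0.109 for Hist1h2bj. The other 10 of the 12 passed in each fit that left out 1 iMo library.

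Peaks of open chromatin near the starts of 3 of these genes were listed in 1 strain only, and their promoters are shown because both readouts can be set side by side there. The sequences are RefSeq's for GRCm38.p6, the assembly of mm10, from 250 bases before to 50 bases after the start; they are the C57BL/6J reference, not DBA2J sequence. Capitals mark matches, on either strand, to 1 of 7 short motifs that were searched. The peak of Mndal was in the C57BL6J list at chr1:173880267-173880467 and covered 171 bases of the promoter chr1:173880138-173880437 (minus strand). The peak of Hpgd was in the C57BL6J list at chr8:56294445-56294645 and covered 157 bases of chr8:56294302-56294601 (plus strand). The peak of Adgrg5 was in the DBA2J list at chr8:94923503-94923703 and covered all of its 201 bases within chr8:94923444-94923743 (plus strand).
Mndal: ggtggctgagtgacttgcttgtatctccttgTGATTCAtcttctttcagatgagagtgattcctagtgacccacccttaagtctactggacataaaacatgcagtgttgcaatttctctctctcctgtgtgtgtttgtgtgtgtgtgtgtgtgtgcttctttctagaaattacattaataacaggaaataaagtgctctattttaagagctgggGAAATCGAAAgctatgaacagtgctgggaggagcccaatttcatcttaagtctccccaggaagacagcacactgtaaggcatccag
Hpgd: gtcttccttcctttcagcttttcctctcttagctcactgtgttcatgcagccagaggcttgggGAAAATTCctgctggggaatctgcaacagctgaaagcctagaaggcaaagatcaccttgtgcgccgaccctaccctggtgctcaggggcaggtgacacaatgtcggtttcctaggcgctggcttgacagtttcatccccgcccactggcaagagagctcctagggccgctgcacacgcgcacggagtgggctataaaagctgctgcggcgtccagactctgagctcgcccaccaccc
Adgrg5: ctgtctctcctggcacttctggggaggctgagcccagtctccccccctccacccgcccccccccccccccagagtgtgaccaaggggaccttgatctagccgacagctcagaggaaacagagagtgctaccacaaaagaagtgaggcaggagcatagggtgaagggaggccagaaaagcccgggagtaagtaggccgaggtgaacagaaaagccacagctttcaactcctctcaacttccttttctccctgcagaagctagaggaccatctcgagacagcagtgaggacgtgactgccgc

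The Mndal promoter held an AP-1 motif (TGANTCA) 219 bases before the start and an interferon response motif (GAAA, any 2 bases, GAAA) 36 bases before it. The Hpgd promoter held a heat shock motif (GAANNTTC) 187 bases before the start. The AP-1 motif lay within the listed peak of Mndal. The interferon response motif and the heat shock motif lay outside the listed peaks. No letters of the 7 motifs were found in the Adgrg5 window, which says nothing about the factors themselves. The interferon response motif was present in 3.80% of the promoters of tested genes, the AP-1 motif in 6.57% and the heat shock motif in 7.25%. Trim12a and Nlrp1c-ps also had a peak within 500 bp of the start in the C57BL6J list only.

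Over all 13873 genes, 4.79% had a peak within 500 bp of the start in the DBA2J list only and 1.51% in the C57BL6J list only. Among the 249 genes higher in DBA2J, 26 had a peak in the DBA2J list only, 10.4% (95% exact binomial interval 6.94 to 14.9), and 11 in the C57BL6J list only, 4.42% (2.23 to 7.77). With only the peaks scored at or above the median of each list these were 12.9% against 6.6% of all genes, and 1.61% against 1.37%. Among the 204 lower genes, 17 had a peak in the C57BL6J list only, 8.33% (4.93 to 13), and 6 in the DBA2J list only, 2.94% (1.09 to 6.29). With those peaks alone these were 6.37% against 1.37% of all genes, and 4.41% against 6.6%. Most genes that differed in RNA had no listed difference in the peak at the start, and so did most of all tested genes. Peaks in both lists were found for 121 higher (48.6%) and 122 lower genes (59.8%), against 65.6% of all genes. A peak in neither list was the case for 91 (36.5%) and 59 (28.9%), against 28.1% of all genes. Besides Adgrg5, genes higher in DBA2J with a peak in its list only included the ATP-gated channel P2rx1, the scavenger receptor Colec12, the complement receptor C5ar1 and S100a8. Chil1, Emp1, Ifi202b and H2-Ea-ps had no peak at the start in either list, and Ccr1 had one in the C57BL6J list although its RNA was higher in DBA2J. Each list was made by the authors from both libraries of a strain, so these shares have no replicate error, and the intervals cover counting of genes only.

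**Figure D2:**
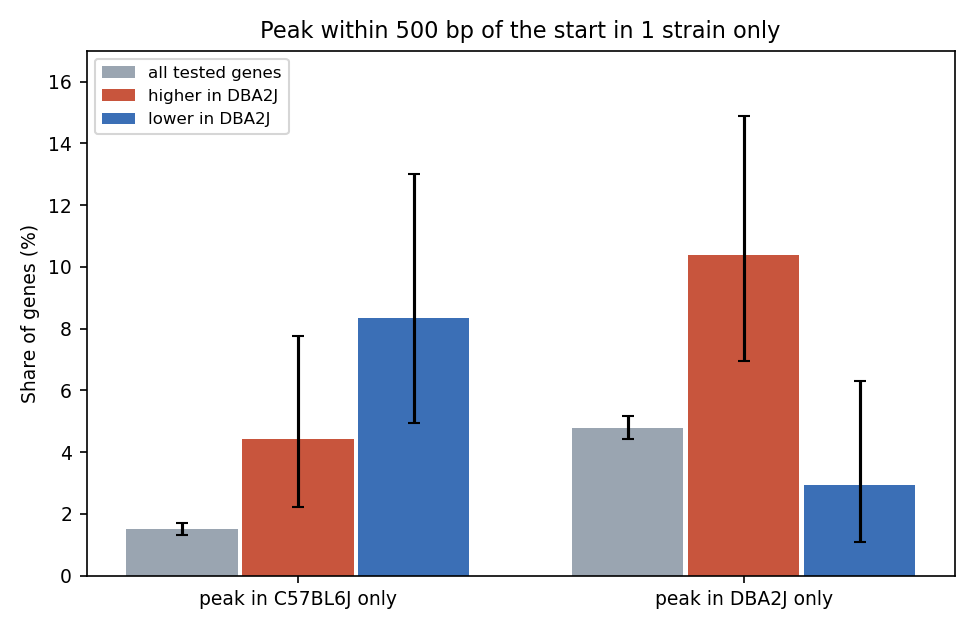
Bars give the share of genes (%) with an ATAC peak within 500 bp of the start in the list of 1 strain only, for all tested genes and for genes higher or lower in DBA2J iMo, with 95% exact binomial intervals. The share in the C57BL6J list only is 8.33% for lower genes against 1.51% for all genes, and the share in the DBA2J list only is 10.4% for higher genes against 4.79%.

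The strain difference of iMo was set beside that of pMo, which comes from other libraries of the same strains in the same fit. In pMo 678 genes passed (4.89%), 343 higher in DBA2J (2.47%) and 335 lower (2.41%), or 177 and 302 on the TPM as deposited. Genes that passed in both types in the same direction numbered 296, 65.3% of the iMo calls and 43.7% of the pMo calls. They included all 12 leading genes toward DBA2J and 11 of the 12 leading genes toward C57BL6J. Cxcl2, a neutrophil-attracting chemokine, passed in both with opposite signs. It was at 3.82 and 1.32 TPM in C57BL6J and 6.79 and 11.1 in DBA2J iMo, but at 38.6 and 50.9 against 15.1 and 11.3 in pMo. In iMo Cxcl2 had 6 reads in C57BL6J and 19 in DBA2J. Its iMo call was lost without C57BL6J replicate 2, DBA2J replicate 1 or DBA2J replicate 2, with an adjusted p of up to 0.296, and in most other settings tried. Of the 453 genes, 290 had the same sign in all 4 cell types and 113 passed in all 4.

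A difference between iMo and pMo in the strain difference itself passed the interaction test in 22 genes (0.159%). In 13 the value was larger toward DBA2J in iMo (0.0937%) and in 9 smaller (0.0649%). Of the 22, 10 passed the strain test in both types, 3 in iMo only and 9 in pMo only. The interaction test had 772 genes at an unadjusted p under 0.05. The count was 10 with a replicate block and 4 without the IM libraries, and it ran from 6 without C57BL6J pMo replicate 2 to 44 without DBA2J pMo replicate 1. It was 42 without C57BL6J pMo replicate 1.

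Emp1, an epithelial membrane protein of the tetraspan family, was at 5.67 and 9.12 TPM in C57BL6J iMo and at 217 and 201 in DBA2J iMo, against 11.4 and 15.3 and 41.2 and 36.0 in pMo. The strains were apart in both types, by 4.67 in iMo and 1.47 in pMo on the log2 scale. The difference of 3.20 ± 0.30 (SE) had an adjusted p of 0.00424, but 0.0994 with the iMo and pMo libraries alone. Gatm, the first enzyme of creatine synthesis, was at 1.86 and 1.45 against 92.0 and 80.3 TPM in iMo and at 3.03 and 2.19 against 22.8 and 20.5 in pMo. Its difference of 2.38 had an adjusted p of 0.0115, but 0.463 with voom on recovered reads, 0.0661 with quantile normalization and 0.0533 without the IM libraries.

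Chil1 and Adgrg5 also differed by more in iMo than in pMo. In pMo Chil1 was at 0.607 and 2.27 TPM in C57BL6J and 18.0 and 13.7 in DBA2J, so that its log2 strain difference was 2.86 there and 6.67 in iMo. Adgrg5 was at 9.13 and 7.07 against 63.7 and 58.5 TPM in pMo, a difference of 2.78 against 5.22. The differences between the types were 3.81 for Chil1 (adjusted p 0.0291) and 2.44 for Adgrg5 (adjusted p 0.0431). Neither passed without DBA2J iMo replicate 1 (0.119 and 0.125), DBA2J iMo replicate 2 (0.0833 and 0.159), C57BL6J pMo replicate 2 (0.123 for both) or DBA2J pMo replicate 2 (0.129 and 0.153). The Chil1 difference was also lost without C57BL6J iMo replicate 2 (0.0995), and the Adgrg5 difference without C57BL6J pMo replicate 1 (0.0881) or DBA2J pMo replicate 1 (0.0731). Neither call held under every setting: the adjusted p was 0.0599 for both with a replicate block and 0.0824 for both with quantile normalization. It was 0.15 for Chil1 with voom on library totals and 0.22 for Adgrg5 with a pseudocount of 0.1. With the iMo and pMo libraries alone it reached 0.259 for Chil1 and 0.327 for Adgrg5. Hpgd had strain differences of -3.65 in iMo and -3.42 in pMo, with a difference between the types of -0.24 ± 0.67 (SE).

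In the other direction, the phosphodiesterase gene Pde2a was at 29.1 and 22.4 TPM in C57BL6J iMo and at 1.73 and 0.926 in DBA2J iMo, while in pMo it was at 7.26 and 7.13 against 3.88 and 4.31. Mpc1, a subunit of the mitochondrial pyruvate carrier, was at 35.4 and 54.4 against 6.5 and 5.6 TPM in iMo and at 17.2 and 16.9 against 11.2 and 14.6 in pMo. Both were apart between the strains in iMo, and their pMo differences, -0.69 and -0.38, did not pass. The differences between the types were -2.85 for Pde2a and -2.29 for Mpc1, each with an adjusted p of 0.0291. Both calls were lost without C57BL6J pMo replicate 2, DBA2J iMo replicate 2 or DBA2J pMo replicate 2, that of Pde2a also without C57BL6J iMo replicate 1 and that of Mpc1 also without DBA2J iMo replicate 1, with adjusted p of up to 0.133 for Pde2a and 0.123 for Mpc1. With a replicate block it was 0.0566 for both, and it was 0.0813 for Mpc1 without the AM libraries and 0.11 for Pde2a with a pseudocount of 0.1.

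**Figure D3:**
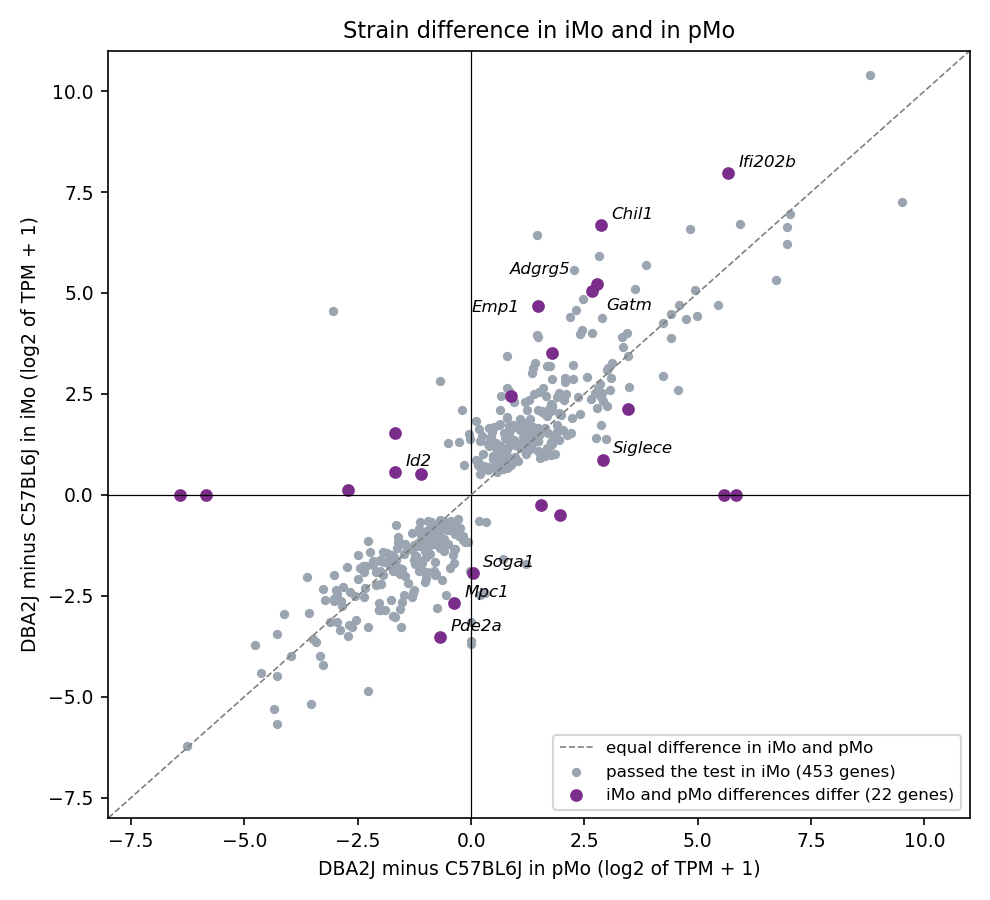
Each point is a gene, with the log2 strain difference in pMo on the x axis and in iMo on the y axis, for the 453 genes that passed in iMo and the 22 whose difference differs between the types. Emp1, Chil1, Adgrg5, Gatm and Ifi202b lie above the dashed line of equal difference, and Pde2a, Mpc1, Soga1 and Siglece below it.

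Most of the dissociation and stress genes that passed were lower in DBA2J. Immediate early genes, which cells induce within minutes of handling, had a median log2 difference of -0.41 in iMo and -0.46 in pMo, against 0.02 and -0.02 for all genes. Of 30 tested, 2 passed in iMo, both lower in DBA2J, and 5 in pMo, also lower, where 3.27% of all genes passed in iMo and 4.89% in pMo. In iMo these were Nr4a2 (-1.31), an orphan nuclear receptor, and Klf6 (-0.68), a zinc finger factor. Each call was lost without C57BL6J replicate 2, DBA2J replicate 1 or DBA2J replicate 2, with adjusted p of up to 0.163 for Nr4a2 and 0.258 for Klf6. The most abundant members did not pass: Fos was at 1927 and 1462 TPM in C57BL6J and 1056 and 1012 in DBA2J, and Junb at 2604 and 1808 against 1416 and 1700. The DBA2J libraries were below the C57BL6J libraries for both genes, and 25 of the 30 members had a value below 0 in iMo, 83.3% against 45.0% of all genes.

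Heat shock chaperones, which refold damaged proteins, had a median of -0.29 in iMo and -0.44 in pMo. Of 36 tested, 1 passed upward and 1 downward in iMo (against 3.27% of all genes), and 4 passed downward in pMo (against 4.89%). At an unadjusted p under 0.05 in limma, 12 were lower and 1 higher in iMo, and 14 were lower and 2 higher in pMo. With median-of-ratios scaling 4 passed downward in iMo, and with voom on recovered reads 3 did, with 1 upward in each. Hspa8, the constitutive Hsc70 chaperone, was at 661 and 857 TPM in C57BL6J and 108 and 162 in DBA2J, a difference of -2.50 ± 0.38 (SE) with an adjusted p of 0.00381. Without DBA2J replicate 1 its adjusted p was 0.0508. In pMo Hspa8 differed by -2.56, at 512 and 361 against 62.8 and 82.5 TPM. Cryab, a small heat shock protein, was higher in DBA2J (3.22), and its call was lost without C57BL6J replicate 2, DBA2J replicate 1 or DBA2J replicate 2, with an adjusted p of up to 0.137.

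The inducible Hsp70 genes Hspa1a and Hspa1b had large differences and a large spread. Hspa1a was at 195 and 184 TPM in C57BL6J and at 4.46 and 62.6 in DBA2J, and Hspa1b at 248 and 243 against 6.41 and 82.0. The DBA2J libraries were below both C57BL6J libraries but far apart from each other, and with log2 differences of -3.35 ± 1.34 and -3.31 ± 1.29 (SE) neither passed (adjusted p 0.284 and 0.266). These neighbours are near-identical copies, so their reads are uncertain. No member of the immediate early or heat shock list passed the test of a difference between iMo and pMo in limma or with voom, and at an unadjusted p under 0.05 there were 2 of 30 and 0 of 36. The stress genes that passed in pMo and not in iMo therefore do not show a difference between the types.

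Interferon-stimulated genes, the antiviral program downstream of interferon receptors, had 0 of 32 members passing in iMo in limma, with a median of -0.37, and 1 at an unadjusted p under 0.05. With voom on recovered reads or with median-of-ratios scaling 1 passed, lower in DBA2J. In iMo 29 of the 32 had values below 0, 90.6% against 45.0% of all genes. In pMo 27 did, 84.4% against 52.6% of all genes, and the list had a median of -0.38 there. Isg15 was at 252 and 170 TPM in C57BL6J and 114 and 140 in DBA2J, and Irf7 at 1575 and 1431 against 1401 and 1276. The Ifi200 family, DNA sensors in 1 cluster on chromosome 1, had members in both directions. Of 12 tested, Ifi202b was higher in DBA2J (against 1.79% of all genes) and Mndal, Ifi213 and Ifi205 lower (against 1.47%). Ifi205 was at 19.1 and 21.9 TPM against 5.18 and 4.43, and its call was lost in each of the 4 fits that left out 1 iMo library, with adjusted p from 0.0824 to 0.19. Aim2, the inflammasome sensor of this cluster, was at 59.3 and 96.5 against 101 and 98.2 TPM and did not pass. Since members of this family resemble each other, reads of strain variants may be counted to another member, and the split among them is uncertain.

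MHC class I and antigen loading genes had 9 of 27 members higher in DBA2J (against 1.79% of all genes) and 0 lower (against 1.47%). The median of the list was -0.16. At an unadjusted p under 0.05 there were 6 lower, and with voom on recovered reads 2 passed downward. All 9 were nonclassical genes of the Q, T and M regions, including H2-Q4 (0.90) and H2-T10 (2.22) besides those above. The classical genes did not pass: H2-K1 was at 3433 and 2947 TPM in C57BL6J and 3366 and 3346 in DBA2J, and H2-D1 at 6126 and 5177 against 4241 and 4715. B2m, the invariant light chain, was at 3643 and 4787 against 3181 and 2890 TPM. Of 13 class II genes, H2-Ea-ps and H2-DMb2 were higher (against 1.79% of all genes). H2-DMb2, a chain of the peptide-loading molecule, was at 11 and 19.9 against 43.4 and 44.5 TPM, and its call was lost without DBA2J replicate 1 (0.065) or DBA2J replicate 2 (0.083).

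Chemokine and trafficking receptors steer monocytes into tissue. In DBA2J 4 of 24 members were higher (against 1.79% of all genes) and 1 lower (against 1.47%), with a median of 0.45. C5ar1, the receptor of complement fragment C5a, was at 35.7 and 37.3 TPM in C57BL6J and at 118 and 116 in DBA2J. Ccr1, a receptor of inflammatory CC chemokines, was at 24.9 and 16.0 against 93.0 and 85.4. Both were higher in each DBA2J library, by 1.65 and 2.10 on the log2 scale. Fpr2, a formyl peptide receptor, was also higher (1.16, adjusted p 0.0318).

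Cxcr4, the receptor that retains leukocytes in bone marrow, was lower in DBA2J, at 608 and 491 against 153 and 203 TPM. Its log2 difference was -1.63 with an adjusted p of 0.00509, and 0.0642 without DBA2J replicate 1. Ccr2, the defining receptor of these cells, was at 2016 and 2750 TPM in C57BL6J and 3797 and 3202 in DBA2J and did not pass. Of 19 chemokine ligands, Cxcl2 passed upward (against 1.79% of all genes) and Ccl5 (-2.18) downward (against 1.47%). The call of Ccl5 was lost in each of the 4 fits that left out 1 iMo library, with differences from -2.39 to -1.98.

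Chil3, another chitinase-like protein and a marker of classical monocytes, was opposite to Chil1. It was at 337 and 408 TPM in C57BL6J and at 110 and 80.2 in DBA2J, lower in both DBA2J libraries. Its log2 difference was -1.97 with an adjusted p of 0.00368, and 0.055 without DBA2J replicate 2. Ear2, a ribonuclease of the eosinophil-associated family, was higher in DBA2J, at 514 and 732 against 1800 and 1830 TPM. The calprotectin gene S100a8 was at 3.24 and 0 against 21.6 and 20.8 TPM, and its call was lost without DBA2J replicate 1 (0.0627) or DBA2J replicate 2 (0.0644).

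In the glutathione and antioxidant system 0 of 28 genes were higher in DBA2J (against 1.79% of all genes) and 4 lower (against 1.47%). The median of the list was -0.29. At an unadjusted p under 0.05 there were 2 higher and 7 lower. Gsr, glutathione reductase, was at 282 and 295 TPM in C57BL6J and at 47.6 and 43.5 in DBA2J. Its log2 difference was -2.64 ± 0.20 (SE) with an adjusted p of 2.79e-05, and it was -3.03 in pMo. Sod1, the cytosolic superoxide dismutase, was at 120 and 87.0 against 29.3 and 31.4 TPM, a difference of -1.72. The call of Sod1 was lost without C57BL6J replicate 1, DBA2J replicate 1 or DBA2J replicate 2, with an adjusted p of up to 0.0627. The glutathione transferase Gsto1 (-0.85) and the peroxiredoxin Prdx6 (-0.77) lost their calls in each of the 4 fits that left out 1 iMo library, with adjusted p of up to 0.297 and 0.181. In limma none of 33 oxidative phosphorylation genes passed, nor any of 26 NF-kB response genes or 24 C-type lectin and Fc receptor genes, with 5, 5 and 7 at an unadjusted p under 0.05 and 0 with voom on recovered reads. Of the NF-kB response genes, 1 passed upward with median-of-ratios scaling and 1 downward on the TPM as deposited. None of 25 unfolded protein response genes passed in limma, with 8 at an unadjusted p under 0.05 and with 2 passing downward with voom and 1 with median-of-ratios scaling.

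Of 15 tested genes chosen for known variants between the strains, 2 were higher (against 1.79% of all genes) and 2 lower (against 1.47%) in DBA2J. Besides Ifi202b and H2-Ea-ps these were Apobec3, at 78.2 and 132 against 32.7 and 36.1 TPM, and Nlrp1b, the inflammasome sensor of anthrax lethal toxin, at 47.8 and 57.2 against 19.2 and 18.5. Both were lower in each DBA2J library, with log2 differences of -1.53 and -1.43, and both calls were lost without C57BL6J replicate 2, DBA2J replicate 1 or DBA2J replicate 2, with adjusted p of up to 0.13 and 0.123. Slc11a1, a phagosomal metal transporter, was at 514 and 496 against 519 and 488 TPM. The mitochondrial transhydrogenase gene Nnt, which carries a deletion in C57BL/6J, was at 6.64 and 11.8 against 10.6 and 11.2 TPM and did not pass.

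**Figure D4:**
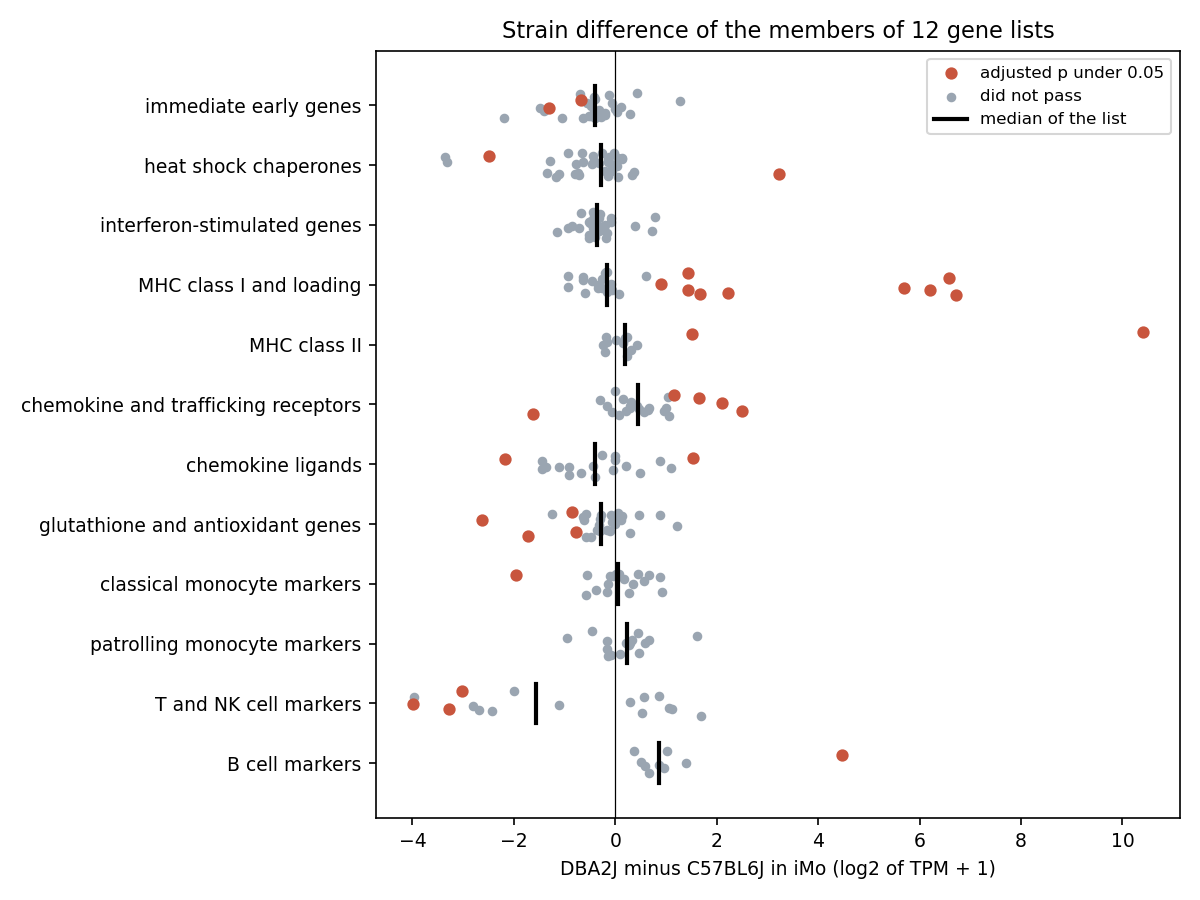
Each point is a gene of 12 lists, placed by its log2 strain difference in iMo (DBA2J minus C57BL6J), coloured where it passed at an adjusted p under 0.05, with a bar at the median of each list. The passing MHC class I genes lie to the right while the median of that list is -0.16. The T and NK cell list has its median at -1.56, with 9 of 16 members below 0 and 7 above.

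Some marker genes of other blood cells differed between the strains in the sorted iMo. Of 16 T and NK cell markers, 9 had values below 0 and 7 above. At an unadjusted p under 0.05 in limma 9 were lower and 3 higher. With voom on recovered reads 4 passed downward and 1 upward. In limma 3 passed (against 3.27% of all genes), all lower in DBA2J. They were Gzmb, Gzma and Prf1, which encode granzymes and perforin of killer cells. Gzma was at 21.6 and 33.2 against 1.35 and 2.45 TPM and Prf1 at 25.7 and 41.6 against 2.80 and 3.50. The calls of Gzma and Prf1 were lost in each of the 4 fits that left out 1 iMo library, with adjusted p of up to 0.168 and 0.206. Nkg7, another granule gene, was at 53.5 and 68.2 against 3.75 and 2.26 TPM and did not pass (adjusted p 0.0689).

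The 8 NK cell genes of the list, a subset taken after the values were seen, summed to 134 and 252 TPM in C57BL6J and 12.4 and 10.4 in DBA2J, and the other 8 to 14.8 and 29.5 against 32.1 and 22.9. The defining T cell genes Cd3e and Cd3d stayed at or below 4.21 TPM. In bulk samples fewer cells of a type and less RNA per cell cannot be told apart. The part of NK cells in the differences of Gzmb, Gzma, Prf1 and Ccl5 was not tested.

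Of 9 B cell markers 1 passed (against 3.27% of all genes), and all 9 had values above 0. Cd22, an inhibitory receptor of B cells that binds sialic acid, was at 13.3 and 21.1 TPM in C57BL6J and 328 and 476 in DBA2J. Its log2 difference was 4.48 ± 0.35 (SE) in iMo and 4.41 in pMo, where it reached 2458 and 2779 TPM in DBA2J. The other 8 B cell markers summed to 122 and 155 TPM in C57BL6J and 305 and 221 in DBA2J iMo. The part of B cells in the difference of Cd22 was not tested.

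Of 12 tested neutrophil markers, S100a8 alone passed, upward (against 1.79% of all genes), while Ngp, Stfa2l1 and Mrgpra2b were at 0 in all 4 iMo libraries. Of the 12, 8 had a strain difference above 0 and 1 below, with a median of 0.41 on the log2 scale. All 14 listed neutrophil markers, tested or not, summed to 369 to 475 TPM in C57BL6J and 512 to 532 in DBA2J. Their part in the strain differences was not tested. The 14 interstitial macrophage markers summed to 5414 to 8864 TPM in C57BL6J and 6992 to 7979 in DBA2J, and Folr2, a folate receptor of resident macrophages, was at 1.75 and 1.01 against 70.7 and 43.6. The 17 alveolar macrophage markers summed to 906 to 1199 against 1999 in both DBA2J libraries, nearly all of it from Ear2 and Chil3, with Marco at or below 0.0518 TPM and Fabp1 at 0. Of the 10 platelet and erythroid markers none passed in limma or with voom, with 2 at an unadjusted p under 0.05, and their sum was 14.0 to 48.6 TPM in C57BL6J and 125 to 303 in DBA2J.

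**Figure D5:**
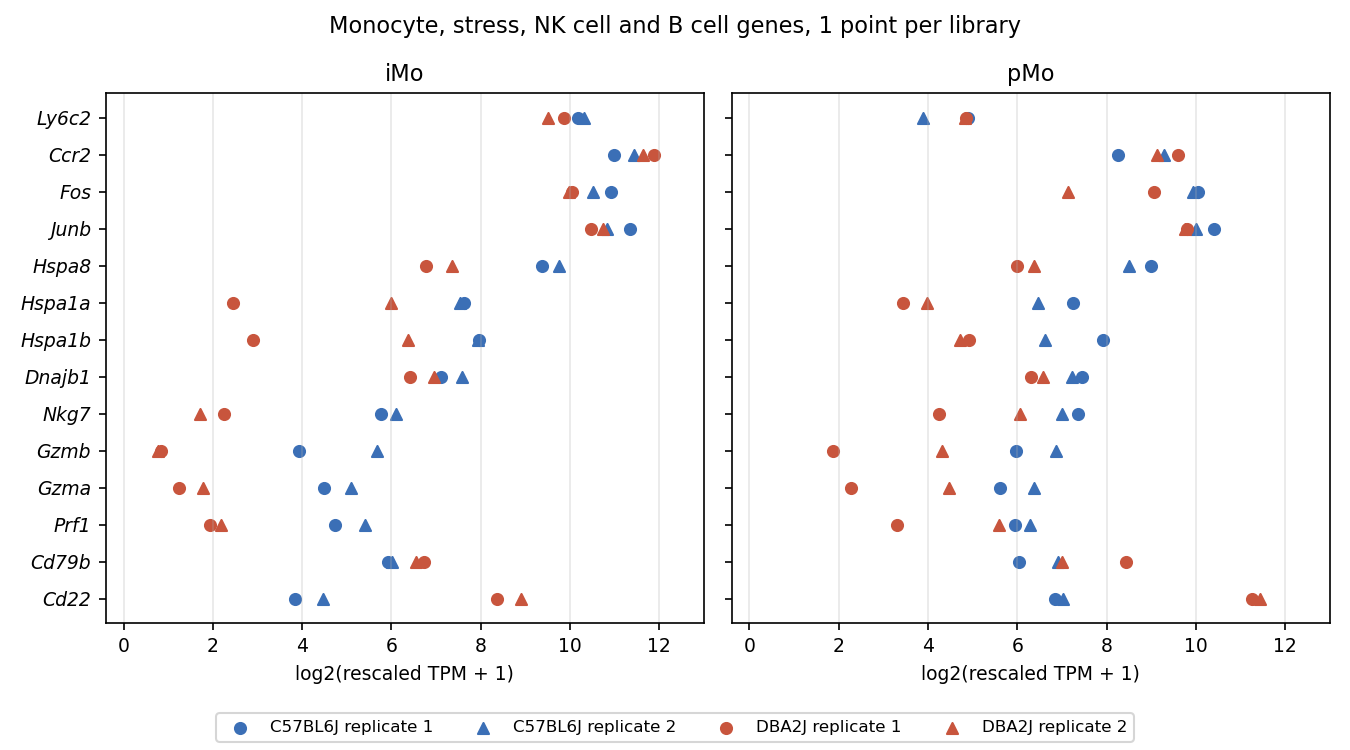
Rows are monocyte markers, stress genes, NK cell genes and B cell genes, and points are libraries, on a log2(TPM + 1) axis, for iMo (left) and pMo (right). Ly6c2 is higher in every iMo library than in every pMo library, Hspa8 is lower in both DBA2J libraries of both types, and Cd22 is higher in both DBA2J libraries of both types.

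The share of genes called ran from 0.567% to 6.55% over the chromosomes. Chromosome 17 had 6.55% of its 748 tested genes called and chromosome 1 had 6.16% of 812, against 0.567% of 353 on chromosome 18. In 30 runs of at least 4 called genes, each within 1 Mb of the next, lay 175 of the 453 genes (38.6%). The longest run by genes covered the MHC on chromosome 17 from 33974659 to 36168537 (mm10). In it 21 of 126 tested genes were called, 19 higher in DBA2J. This count takes H2-Q6 and H2-Q8 as separate genes, although both had the same reads in every library. A run on chromosome 7 from 104244457 to 104507849 had 6 of 9 tested genes called, all 6 of the Trim family and 5 of them lower, with Trim12a among them.

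Another run on chromosome 7 from 100178683 to 102687327 held 11 of 45, with the potassium channel subunit Kcne3 (4.71), the nucleotide receptor P2ry2 (4.36), Folr2 and Pde2a. Chil1 lay in a run of 4 higher genes on chromosome 1 from 134182404 to 135132575, among 12 tested. Chil3 lay in a run where all 4 tested genes were called, on chromosome 3 from 106016919 to 106503030. Gsr lay in a run of 5 lower genes of 10 tested on chromosome 8 from 33599621 to 34170847. Nlrp1c-ps, Nlrp1b and Nlrp1a were the end of a run of 10 genes on chromosome 11, with Nlrp1a higher in DBA2J (0.95) and the others lower. The calls of Nlrp1a and Nlrp1b were lost in 4 and 3 of the 4 fits that left out 1 iMo library, with adjusted p of up to 0.193 and 0.123. Genes counted over another gene's span made up 20.5% of the called and 24.4% of the tested genes.

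Among the called genes that had a promoter sequence, the interferon response motif was in 16 of 147 lower genes (10.9%) and 6 of 190 higher genes (3.16%), against 3.80% of tested genes. The NF-kB motif (GGGA, any 3 bases, TCC) was in 10.9% of lower and 7.37% of higher genes, against 6.20%. The heat shock motif was in 13 of 28 heat shock chaperone promoters (46.4%) but in 7.48% of the lower and 5.79% of the higher genes. These are matches of letters in the reference genome, and no test was made of the shares.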

How the data were processed

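RNA levels came from the authors' deposited table of TPM for 24940 genes, and open chromatin from 1 deposited peak list per strain for iMo, with 35947 peaks for C57BL6J and 32636 for DBA2J and a score per peak that the authors made, of unstated scale. The submitters' processing notes name mm10, the C57BL/6J genome, and STAR, Bowtie and HOMER, without a role or version. What the alignment of DBA2J reads to that genome did to single genes was not tested. In 99.2% of genes the length that the authors divided by equals the genomic span. All values checked were whole multiples of 1 read within 0.1 read, so reads per gene were recovered.

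The steps here were to remove Rn45s and Mir6236, rescale each library to 1000000, keep the 13873 genes whose mean over 16 libraries reached 1 TPM, and fit log2(TPM + 1) in limma 3.58.1 (R 4.3.3) with 1 mean for each of 8 groups of cell type and strain, eBayes with a trend and 8 residual degrees of freedom. The call threshold was 0.05 on the Benjamini-Hochberg adjusted p. A log2 difference of a pseudocount scale understates the change of low genes. In simulated data with 200 of 13873 genes changed the fit was checked first. Peaks within 500 bp of a start were counted in Python 3.11.15 with pandas 2.3.3, numpy 2.4.6 and scipy 1.17.1, and figures were drawn with matplotlib 3.10.9. Intervals and floors cover counting error only.

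Named genes are the 12 largest called differences in each direction with at least 10 TPM in the higher strain and no overlap, without predicted genes, up to 4 called members of each of 38 gene lists, all sort panel and known variant genes, Chil1, Adgrg5 and Hpgd, expressed stress genes, and the 10 largest of the difference between iMo and pMo; not all are printed. Kcne3, P2ry2, P2rx1, Colec12, Nkg7, Fpr2 and a few unchanged genes were added after their values were seen. The members and lists were chosen with earlier results of these data known. Some items are not reported here.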

Additional observations from a re-analysis of the deposited data

Results flagged for a closer look

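In 22 genes the strain difference (DBA2J minus C57BL6J, log2 of TPM + 1) differed between iMo and pMo by the interaction test in limma at an adjusted p under 0.05. The 10 with the largest such difference among those the rule for named genes admits are given. Chil1 had a difference between the types of 3.81, Emp1 of 3.20, Adgrg5 of 2.44, Gatm of 2.38 and Ifi202b of 2.30, all with the larger strain difference in iMo. Id2, an inhibitor of basic helix-loop-helix factors, had 2.23. It was at 108 and 122 TPM in C57BL6J and 180 and 160 in DBA2J iMo but 180 and 174 against 60.5 and 49.8 in pMo. In iMo alone the strain difference of Id2 did not pass in limma (adjusted p 0.068). Pde2a had -2.85, Mpc1 -2.29 and Soga1 -1.98, each lower in DBA2J iMo. Siglece, an inhibitory sialic acid receptor of myeloid cells, had -2.02: it was at 54.6 and 47.5 against 88.0 and 101 TPM in iMo and at 42.1 and 35.9 against 283 and 311 in pMo. The interaction of Ifi202b had an adjusted p of 0.0495 and was lost in each of the 8 fits that left out 1 monocyte library, with up to 0.204. Of the 10, Emp1, Id2 and Gatm passed in each such fit.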

How the results depend on the processing

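All 453 genes kept their sign in every setting in which they were tested. The strains did not overlap in any of them, so most settings could not have changed a sign. Those were the fits that left out libraries or changed the filter, the pseudocount, the variance trend or the block. Only the settings that rescaled the libraries or used recovered reads could have reversed one. The iMo count was 453 and ran from 217 to 417 over the fits that left out 1 library; it was 286 without the AM groups and 3 with the libraries of the contrast alone. The pMo count of 678 ran from 292 to 862, and was 394 without the AM groups and 315 with the iMo and pMo libraries alone. That fit held more libraries than the iMo fit with 3 calls, so the 315 and the 3 cannot be compared. The count of genes differing between iMo and pMo, 22, ran from 6 to 44, and was 11 with quantile normalization, 13 without a variance trend, 10 with a replicate block, 4 without the IM libraries, 11 with voom on recovered reads, 11 with voom on library totals and 9 without the AM groups. Fits with voom, on at least 20 reads and without AM were chosen after seeing the data. The replicate numbers were not used as pairs: residuals of same-numbered libraries correlated with a median of 0.0193 over 28 pairs of groups (-0.0582 to 0.158), and with the replicate block 454 genes passed in iMo. The cause of these changes was not tested, and 2 libraries a strain limit all of them.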

Other observations

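Several other genes, chosen after their values were seen, differed between the strains in iMo. Cd33, an inhibitory sialic acid receptor, was at 207 and 282 TPM in C57BL6J and 716 and 569 in DBA2J, with a log2 difference of 1.40 and an adjusted p of 0.00158 in limma. Stab2, a scavenger receptor of hyaluronan, was at 0.0187 and 0 against 23.4 and 27.4 TPM. Arsb, a lysosomal sulfatase, was at 6.10 and 7.54 against 94.2 and 83.1 TPM. Ltb, the membrane-bound lymphotoxin subunit, was at 86.8 and 37.5 against 533 and 590 TPM. Lower in DBA2J were Cyp4f18, a leukotriene B4 hydroxylase, at 224 and 213 against 31.1 and 44.6 TPM, and Padi4, the arginine deiminase of nuclear histones, at 58.0 and 45.6 against 7.24 and 5.58 TPM. In each of these the libraries of the strains did not overlap, as in 40.7% of all genes tested.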
